A study of Mus musculus with 6 samples.

Results

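The genes described here supply peptides to major histocompatibility complex (MHC) class I molecules, the surface proteins through which a cell shows fragments of its own proteins to CD8 T cells. There are 10 of them among the 23127 genes of the table, chosen by symbol. They are Nlrc5, the regulator of class I transcription, the immunoproteasome subunits Psmb8, Psmb9 and Psmb10, the proteasome activator subunits Psme1 and Psme2, the peptide transporter chains Tap1 and Tap2, tapasin (Tapbp) and the tapasin-related protein (Tapbpl). All 10 were found and all 10 had a mean of at least 10 scaled counts, so each was tested.

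RNA was measured in 6 libraries of cells with high Lgr5-GFP, taken by sorting from small intestine of C57BL/6 animals that carry a green fluorescent reporter of Lgr5, a receptor gene of crypt base stem cells. The treated group (3 libraries, called IFNg 6, 2 and 10 after the end numbers of their titles) was kept for 1.5 h with interferon gamma (IFNg) at 1 ng/ml in medium holding EGF, Noggin and R-spondin1. The untreated group (3 libraries, untreated 5, 1 and 9) carries the label no treatment, and its titles also hold the number 1.5. Whether the untreated cells were kept in the same medium for the same time is not stated. The part of time in medium in the differences between the groups was not tested. All 6 libraries share the reporter, the sort and the strain, and the labels give neither the age of the mice nor the animals behind each library. The p-values therefore speak of the variation among these 6 samples, and that variation may be technical. The design sets IFNg against no treatment in cells sorted for high Lgr5-GFP.

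In the known pathway, proteasomes cut cytosolic proteins into peptides, and IFNg leads cells to build immunoproteasomes, in which Psmb8, Psmb9 and Psmb10 take the places of the catalytic subunits Psmb5, Psmb6 and Psmb7. Psme1 and Psme2 form the PA28 cap that opens the proteasome. Tap1 and Tap2 pair in the membrane of the endoplasmic reticulum and carry peptides inside, where tapasin bridges the transporter to class I molecules and helps to select peptides that bind well. Nlrc5 has no DNA-binding domain of the usual kind and acts on class I promoters through the RFX complex and its partners.

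The libraries held 28508762 to 40224497 reads in genes, and 1 read was worth 0.853 to 1.05 scaled counts. The floor that a zero count allows, 3 reads, equals 2.56 to 3.16 scaled counts for counting error only, and no member was near it. Libraries 5 and 6 carry the tag GFP1 in their titles and the other 4 the tag GFP3, and the labels do not explain it. The first principal component of all tested genes, with 35.2% of the variance, set the 2 GFP1 libraries (-88.2 and -54.9) apart from the 4 GFP3 libraries (18.3 to 59), and the second, with 28.8%, set the treatments apart. Libraries with neighbouring numbers (5 and 6, 1 and 2, 9 and 10) deviated together and are called pairs below, a reading that rests on the data and not on the labels. Of 5 stem cell markers, all were detected and 0 were called. Lgr5 lay at 2484 to 5310 scaled counts in IFNg libraries and 2801 to 8499 in untreated ones, and Olfm4 at 225396 to 240556 in IFNg libraries and 219689 to 266604 in untreated ones. Smoc2 (2.20-fold) and Ascl2 (1.92-fold) were higher with IFNg at unadjusted p-values of 0.0222 and 0.0424 in limma (adjusted p 0.395 and 0.507), and Axin2 had a fold of 0.989. The part of such marker shifts in the members' values was not tested. In such bulk samples, fewer cells of a type and less RNA per cell cannot be told apart.

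After 1.5 h of IFNg, Nlrc5 was the member that rose past the test, 4.61-fold in mean scaled counts. Tap1 had the largest fold of the 10, 7.11, but did not pass, with an adjusted p of 0.0562 in limma, just above the threshold. The other 8 did not pass either, and their folds lay between 0.872 for Tapbp and 1.77 for Psmb9. Thus 1 of 10 members was called higher by limma on log2(scaled count + 1) with Benjamini-Hochberg adjustment below 0.05 over all 16095 tested genes, and 0 were called lower. The background share called higher over all tested genes was 0.416%, and that called lower was 0.0124%. At an unadjusted p below 0.05, 3 members were higher (Nlrc5, Tap1 and Psmb9) and 0 lower, beside 8.46% of all tested genes higher. Nlrc5 and Tap1 had groups that did not overlap, 2 of 10 members, beside 8.13% of all tested genes with all IFNg libraries higher. Nlrc5, Tap1, Psmb9, Psmb8 and Tapbpl were higher with IFNg in all 3 pairs, 5 of 10 members, beside 15.1% of all tested genes. The log2 change was above 0 for 9 of 10 members with a median of 0.20, while over all tested genes 42.9% lay above 0 and the median was -0.08.

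**Figure D1:**
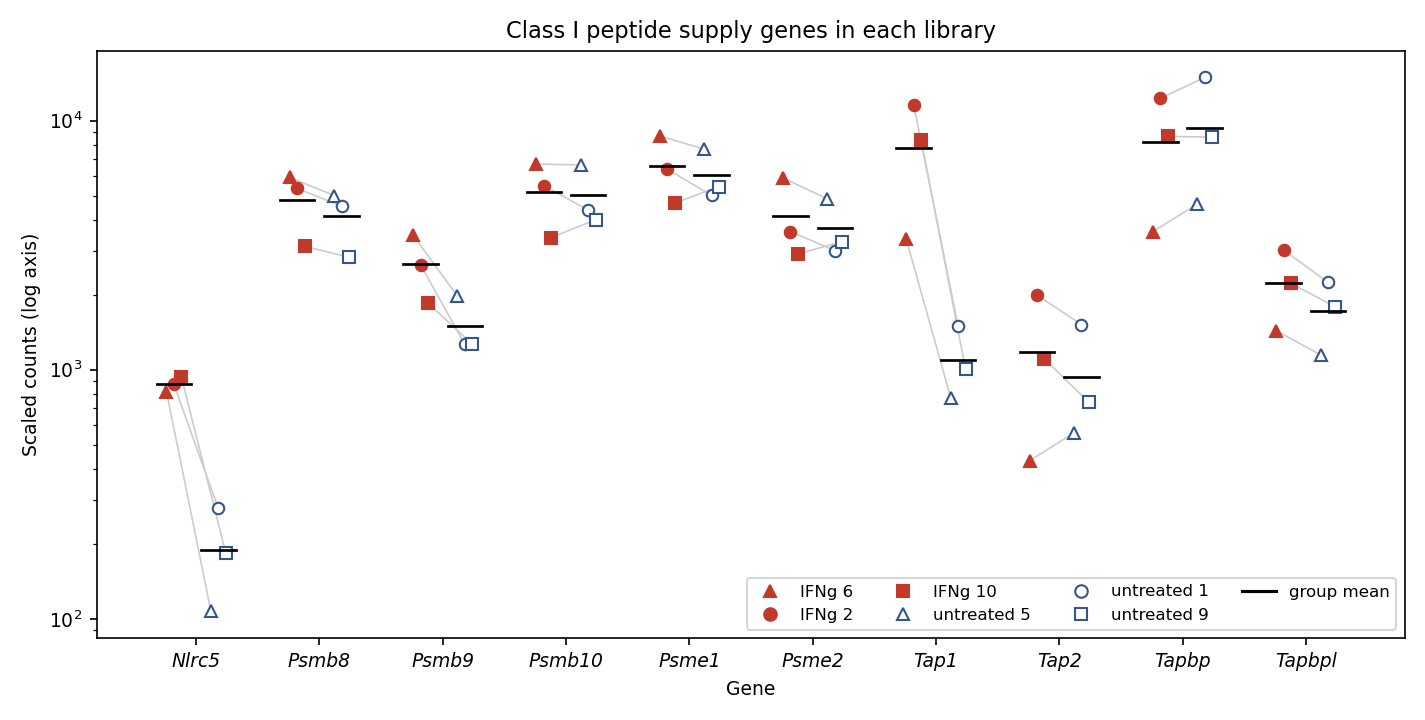
Scaled counts (log axis) of the 10 genes in each library, IFNg libraries to the left of untreated ones and the 3 pairs joined by lines. Nlrc5 and Tap1 have every IFNg library above every untreated one, and in the other 8 genes the groups overlap.

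Nlrc5 (ENSMUSG00000074151.12) lies on chromosome 8, bases 94434356 to 94527272 of the plus strand in mm10. It had 816, 873 and 939 scaled counts in IFNg libraries 6, 2 and 10, against 107, 278 and 184 in untreated libraries 5, 1 and 9. Every treated library was high and close to the others, and all 3 untreated ones were low. The means were 875.8 ± 61.4 with IFNg and 189.9 ± 85.3 without (SD, n = 3 each). Its log2 change was 2.30 ± 0.375 (SE), with a 95% interval of 1.45 to 3.15 and an adjusted p of 0.0446 in limma. The pairs gave log2 changes of 2.91 (5 and 6), 1.65 (1 and 2) and 2.34 (9 and 10), so the size varied more between untreated libraries than between treated ones. The call was close to the threshold: limma's adjusted p was 0.172 when untreated 9 was left out, 0.0670 when IFNg 6 was, 0.200 for IFNg 2 and 0.203 for IFNg 10. It was 0.122 with a plain prior, and edgeR, with 0.36% of genes called higher, gave 0.0617, while DESeq2 gave 1.80e-06. Over all 17 alternatives the log2 change stayed between 1.95 and 2.63.

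Tap1 (ENSMUSG00000037321.17), a chain of the peptide transporter, lies on chromosome 17, bases 34187553 to 34197225, plus strand. Its scaled counts were 3332, 11539 and 8369 in IFNg libraries 6, 2 and 10, against 772, 1492 and 1004 in untreated libraries 5, 1 and 9. The lowest treated library stood above the highest untreated one, yet treated libraries differed among themselves more than for Nlrc5. Tap1 averaged 7747 ± 4139 scaled counts with IFNg and 1089 ± 367 without (SD, n = 3 each). On the log2 scale the change was 2.71 ± 0.463 (SE), with a 95% interval of 1.66 to 3.76 and an adjusted p of 0.0562 in limma. With the pairs as a block the adjusted p in limma was 0.00658 (0.46% of all tested genes were called higher in that fit), and DESeq2 gave 8.32e-07 (3.22% called higher). The changes within pairs were 2.11, 2.95 and 3.06 on the log2 scale for pairs 5 and 6, 1 and 2, and 9 and 10. Over the 17 alternatives Tap1's adjusted p ran from 8.32e-07 in DESeq2 to 0.247 without IFNg 10, with 9 below the threshold, among them 0.0484 without untreated 5 and 0.00849 without IFNg 6, and the log2 change stayed between 2.33 and 3.23. In every pair the treated library held at least 4.32 times the scaled counts of its untreated partner.

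Tap2 (ENSMUSG00000024339.12), the second chain of the same transporter, starts 2072 bases beyond the end of Psmb8 at 34203527 and ends at 34216321 on chromosome 17, plus strand. It had 432, 1991 and 1106 scaled counts in IFNg libraries 6, 2 and 10, against 558, 1518 and 739 in untreated libraries 5, 1 and 9. The groups overlapped over most of their range, and in the pair 5 and 6 the treated library was lower. The log2 change was 0.20 ± 0.570 (SE), with a 95% interval of -1.09 to 1.49 and an adjusted p of 0.959 in limma, so a change of up to about that size in either direction was not resolved. Within each library, the ratio of the partners does not depend on the scaling. Scaled counts of Tap1 over those of Tap2 gave 7.71, 5.79 and 7.56 in IFNg libraries 6, 2 and 10, and 1.38, 0.982 and 1.36 in untreated libraries 5, 1 and 9. The treated and the untreated ratios thus formed separate narrow groups although each gene alone spread widely. On the log2 scale, with a pseudocount of 1, the ratio was 2.80 ± 0.230 with IFNg and 0.29 ± 0.277 without (SD, n = 3 each), a difference of 2.51, and the pairs gave 2.48, 2.56 and 2.48. The exact two-sided permutation p was 0.1, the smallest that 3 against 3 allow, and 0.35 after adjustment over the 7 ratios tested.

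**Figure D2:**
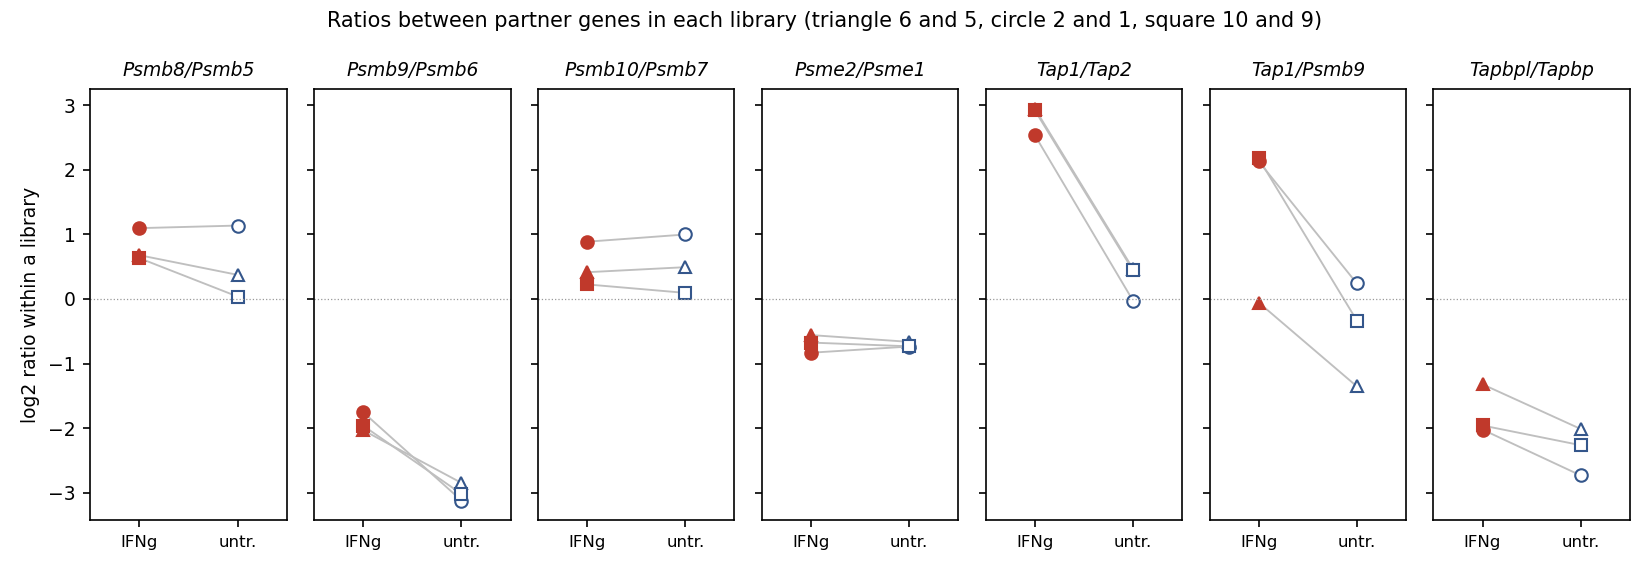
Log2 ratio of partner genes within each library, IFNg to the left of untreated, with a line joining the libraries of a pair (triangles 6 and 5, circles 2 and 1, squares 10 and 9). Tap1 over Tap2 and Psmb9 over Psmb6 separate the groups, with differences of 2.51 and 1.08, and the other 5 ratios overlap.

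Tap1 and Psmb9 lie head to head on opposite strands. Their RefSeq start sites, at 34187556 for Tap1 and 34187330 for Psmb9, are 226 bases apart, and the promoter windows of both genes (250 bases before to 50 after the start, RefSeq, GRCm38.p6, the same build as mm10) share 275 of 300 bases. The Tap1 window is printed 5′ to 3′ on the plus strand because the Psmb9 window shares 275 of its bases. Capitals mark a CCAAT box and a GC box.
Tap1 chr17:34187306-34187605: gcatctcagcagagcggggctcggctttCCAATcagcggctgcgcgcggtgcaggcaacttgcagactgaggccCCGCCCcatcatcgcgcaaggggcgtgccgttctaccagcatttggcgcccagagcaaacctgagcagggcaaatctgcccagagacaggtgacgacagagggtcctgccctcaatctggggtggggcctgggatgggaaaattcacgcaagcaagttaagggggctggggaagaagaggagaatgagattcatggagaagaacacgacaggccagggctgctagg
The 4 motifs searched on both strands were the interferon-stimulated response element (GAAA, any 2 bases, GAAA), the interferon gamma-activated site (TTCNNNGAA), CCAAT and the GC box GGGCGG, with matches that did not overlap each other in any member's window. Of 32851 RefSeq promoter windows of this length, 3.44% hold the response element, 8.30% TTCNNNGAA, 37.4% CCAAT and 35.7% GGGCGG. The Tap1 window holds a CCAAT match at 34187334 to 34187338 and a GC box at 34187380 to 34187385, and the Psmb9 window holds the same 2 matches read from the other strand. Neither window holds the interferon motifs in these letters, which says nothing of the factors themselves.

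Windows were found for 7 of the 10 members. Nlrc5, Tap2 and Tapbpl have none in the table. Among the 7, the interferon-stimulated response element was matched in Psme1 alone, by TTTCGCTTTC starting at position 10. Positions are counted from 1 at the RefSeq start site. The gamma-activated site was matched in Psmb8 alone, by TTCCCAGAA starting at -97. GENCODE M21, the source of the gene positions, starts Psmb8 at 34197721 and Psme1 at 55578123. Both windows thus lie inside the genes as placed there, and so do the windows of Psmb9 and Tapbp. Psmb9 starts there at 34187764 on the minus strand and Tap1 at 34187553 on the plus strand, so in GENCODE M21 these genes overlap. These are the windows of the members that hold an interferon motif, shown 5′ to 3′ on the plus strand with the matches in capitals, a GC box in Psme1 included.
Psmb8 chr17:34197945-34198244: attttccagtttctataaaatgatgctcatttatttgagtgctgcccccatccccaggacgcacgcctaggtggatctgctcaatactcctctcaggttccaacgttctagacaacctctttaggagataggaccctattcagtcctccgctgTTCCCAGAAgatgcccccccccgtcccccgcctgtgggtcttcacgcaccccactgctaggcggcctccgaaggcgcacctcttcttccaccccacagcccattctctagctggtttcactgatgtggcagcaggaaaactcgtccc
Psme1 chr14:55578244-55578543: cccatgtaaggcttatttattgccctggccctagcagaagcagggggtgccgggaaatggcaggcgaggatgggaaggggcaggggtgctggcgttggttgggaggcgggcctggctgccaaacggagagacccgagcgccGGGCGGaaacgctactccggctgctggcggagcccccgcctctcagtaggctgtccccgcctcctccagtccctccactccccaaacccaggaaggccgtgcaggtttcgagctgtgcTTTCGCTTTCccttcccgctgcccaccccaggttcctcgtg
Of the 7 members with a window, 3 held CCAAT and 5 the GC box. A match is a description of the letters and not of a site in use.

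Psmb9 (ENSMUSG00000096727.2, chromosome 17, 34181987 to 34187764, minus strand) encodes the subunit that takes the place of Psmb6. It had 3462, 2638 and 1853 scaled counts in IFNg libraries 6, 2 and 10, against 1974, 1263 and 1266 in untreated libraries 5, 1 and 9. Each treated library was above its own partner, but IFNg 10 was below untreated 5, so the groups overlapped. The log2 change was 0.81 ± 0.322 (SE), with a 95% interval of 0.08 to 1.54 and an adjusted p of 0.454 in limma, and no alternative brought that p under the threshold (0.126 to 0.992). Set against Psmb6 in the same library, the values came together. The scaled counts of Psmb9 were 0.244, 0.296 and 0.257 times those of Psmb6 in IFNg libraries 6, 2 and 10, and 0.139, 0.115 and 0.124 times in untreated libraries 5, 1 and 9. The mean log2 ratio was -1.92 ± 0.145 with IFNg and -3.00 ± 0.138 without (SD, n = 3 each). The groups did not overlap, the difference was 1.08 on the log2 scale, or 2.11 times, and the exact two-sided permutation p was 0.1, adjusted to 0.35. Psmb6 itself had a log2 change of -0.27 in limma that did not pass. The exons of Psmb9 and Tap1 share 212 bases, 5.79% of Psmb9 and 3.87% of Tap1. Of the 50-base stretches of the longest coding transcript, 12.5% in Psmb9 and 5.61% in Tap1 are shared with the other gene. Without a strand mark the gene behind reads from the shared bases cannot be told. The strand setting of the counting is not given, so such reads may have been set apart as ambiguous or counted to either gene. The part of Tap1 reads in the Psmb9 value was not tested. Tap1 over Psmb9 was higher by 1.90 on the log2 scale with IFNg, with overlapping groups and an exact two-sided permutation p of 0.2, adjusted to 0.35.

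Psmb8 (ENSMUSG00000024338.14, chromosome 17, 34197721 to 34201454, plus strand), which replaces Psmb5, begins 495 bases after the end of Tap1. Its scaled counts were 5909, 5338 and 3127 in IFNg libraries 6, 2 and 10, against 5001, 4538 and 2828 in untreated libraries 5, 1 and 9. All 3 pairs were slightly higher with IFNg, by 0.24, 0.23 and 0.15 on the log2 scale, while the groups overlapped. The log2 change was 0.21 ± 0.340 (SE), with a 95% interval of -0.56 to 0.98 and an adjusted p of 0.930 in limma. Psmb10 (ENSMUSG00000031897.8, chromosome 8, 105935735 to 105938444, minus strand), which replaces Psmb7, had 6686, 5483 and 3389 scaled counts in IFNg libraries 6, 2 and 10, against 6639, 4370 and 4001 in untreated libraries 5, 1 and 9. Its pairs went both ways, and its log2 change was 0.03 ± 0.332 (SE), with a 95% interval of -0.72 to 0.79 and an adjusted p of 0.987 in limma. The log2 ratio to the constitutive partner differed by 0.29 for Psmb8 over Psmb5 and by -0.02 for Psmb10 over Psmb7, with exact two-sided permutation p-values of 0.5 and 1, or 0.7 and 1 after adjustment over the 7 ratios. Both ratios overlapped between groups. The annotated gene Gm20496 on the opposite strand shares 14.7% of the exon bases of Psmb8 and 4.36% of those of Tap2. Gm15821 shares 14.1% of the exon bases of Tap2. The values of Psmb8 and Tap2 are therefore uncertain, by an amount that was not measured. In the mouse MHC, 4 members stand in the order Psmb9, Tap1, Psmb8 and Tap2 within 34335 bases, with fitted log2 changes of 0.81, 2.71, 0.21 and 0.20.

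The PA28 subunits stood high in both groups. Psme1 (ENSMUSG00000022216.16, chromosome 14, 55578123 to 55581529, plus strand) had 8672, 6386 and 4656 scaled counts in IFNg libraries 6, 2 and 10, against 7678, 5009 and 5431 in untreated libraries 5, 1 and 9. Psme2 (ENSMUSG00000079197.10, chromosome 14, 55587441 to 55591113, minus strand) had 5886, 3586 and 2916 in the same IFNg libraries, against 4845, 3008 and 3267 in the same untreated ones. Each gene was higher with IFNg in pairs 5 and 6 and 1 and 2 and lower in pair 9 and 10. In limma the log2 changes were 0.10 ± 0.309 for Psme1 (95% interval -0.60 to 0.80, adjusted p 0.960) and 0.12 ± 0.333 for Psme2 (-0.63 to 0.88, adjusted p 0.957). The log2 ratio of Psme2 to Psme1 lay between -0.83 and -0.56 in the IFNg libraries and between -0.74 and -0.66 in the untreated ones, so the pair moved together in every library. That ratio differed by 0.02 between groups (exact two-sided permutation p 0.8, adjusted 0.933). Psme2 shares 59.3% of its 50-base stretches with Psme2b, a single-exon copy on chromosome 11, so reads of both are uncertain. Psme2b, no member, had a fold of 1.11, the same as Psme2.

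Tapasin binds the transporter to class I molecules. Tapbp (ENSMUSG00000024308.14, chromosome 17, 33915899 to 33929292, plus strand) had 3585, 12273 and 8636 scaled counts in IFNg libraries 6, 2 and 10, against 4626, 14893 and 8582 in untreated libraries 5, 1 and 9. It was the member with a fold below 1, and its libraries differed by number far more than by treatment. The log2 change was -0.21 ± 0.529 (SE), with a 95% interval of -1.41 to 0.99 and an adjusted p of 0.955 in limma. Tapbpl (ENSMUSG00000038213.7, chromosome 6, 125223933 to 125231860, minus strand), a relative of tapasin that edits peptides apart from the transporter, had 1434, 3022 and 2222 scaled counts in IFNg libraries 6, 2 and 10, against 1146, 2242 and 1787 in untreated libraries 5, 1 and 9. Each treated library was above its partner, by 0.32, 0.43 and 0.32 on the log2 scale, with overlapping groups. Its log2 change was 0.36 ± 0.364 (SE), with a 95% interval of -0.47 to 1.18 and an adjusted p of 0.891 in limma. The log2 ratio of Tapbpl to Tapbp was higher by 0.57 with IFNg, with an exact two-sided permutation p of 0.2, adjusted to 0.35. Exons of Tapbp share 24.9% of their bases with Gm19412 on the opposite strand, which leaves its value uncertain.

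**Figure D3:**
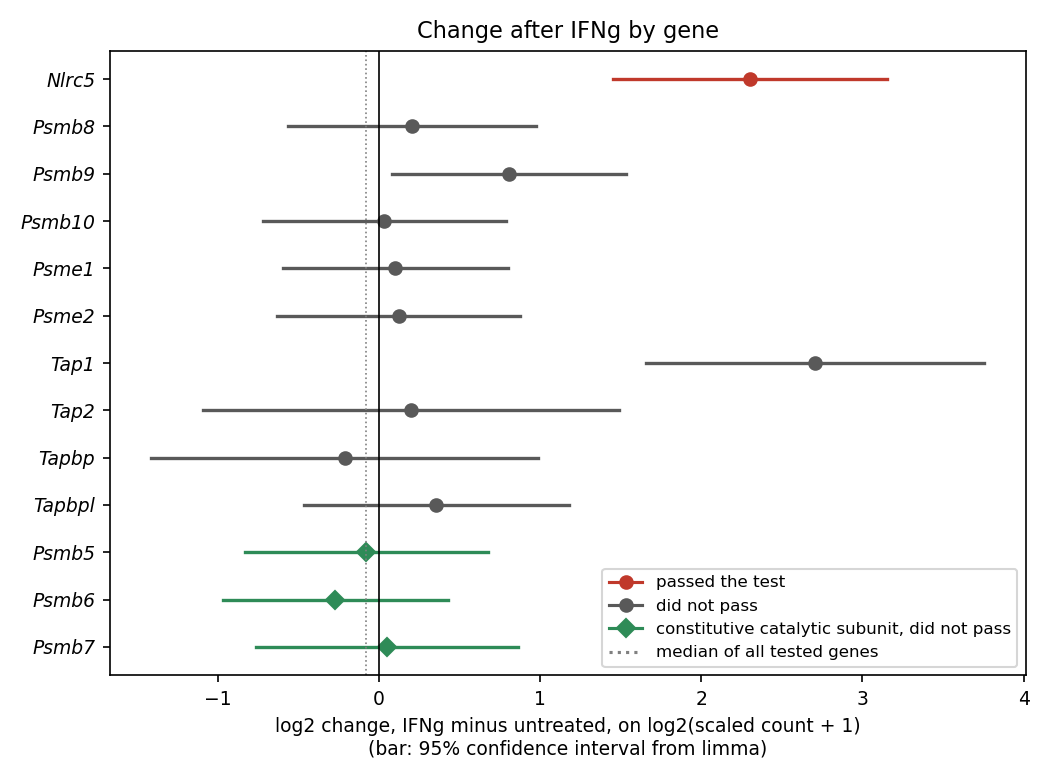
Fitted log2 change, IFNg minus untreated, on the log2(scaled count + 1) scale with 95% intervals from limma (n = 3 libraries each), for the 10 genes and the 3 constitutive subunits, with a dotted line at the median of all tested genes (-0.08). The intervals of Nlrc5 (1.45 to 3.15), Tap1 (1.66 to 3.76) and Psmb9 (0.08 to 1.54) lie above 0, the others include 0, and Nlrc5 alone passed.

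In the untreated libraries the members stood at very different levels. Per kilobase of merged exon, untreated libraries averaged 2934 ± 838 scaled counts for Psmb10, 2734 ± 649 for Psme1, 2582 ± 1427 for Tapbp and 2101 ± 564 for Psme2 (SD, n = 3). Psmb8 followed at 1219 ± 338 scaled counts per kilobase, Tapbpl at 733 ± 234, Psmb9 at 410 ± 112, Tap2 at 248 ± 135, Tap1 at 199 ± 67.1 and Nlrc5 at 22.4 ± 10.0. The PA28 subunits, Psmb10 and tapasin were thus among the abundant transcripts of the untreated libraries, above 94.4% or more of the tested genes with a length, while Nlrc5 was above 25.7% of them. Between neighbours in this order the untreated ranges were apart at 2 places, between Psme2 and Psmb8 and between Tap1 and Nlrc5. The other neighbours overlapped. With IFNg, Tap1 stood at 1415 ± 756 scaled counts per kilobase and Nlrc5 at 103 ± 7.23, still the lowest of the 10 (SD, n = 3). The order depends on the length used. Per kilobase of the longest protein-coding transcript, untreated libraries averaged 5431 ± 1290 scaled counts for Psme1, 3853 ± 1034 for Psme2, 3816 ± 1090 for Psmb10, 3232 ± 1787 for Tapbp and 2532 ± 703 for Psmb8 (SD, n = 3). On that scale Psmb9 (1110 ± 303) stood above Tapbpl (733 ± 234), Tap1 (369 ± 124) above Tap2 (273 ± 148), and Nlrc5 was again lowest at 25.1 ± 11.3. The ranges of neighbours were then apart between Psmb8 and Psmb9 and between Tap2 and Nlrc5. Of the constitutive subunits, Psmb6 stood above Psmb9 on both scales, at 6313 per kilobase of exon and 14810 per kilobase of transcript. Psmb5 stood at 3219 on both scales, above the mean of Psmb8, with overlapping ranges per kilobase of transcript. In scaled counts, however, Psmb8 was 1.29, 2.20 and 1.03 times Psmb5 in untreated libraries 5, 1 and 9. Psmb8 has 3381 merged exon bases and a longest transcript of 1628 bases. Psmb7, at 1039 per kilobase of exon and 3063 per kilobase of transcript, had a mean below Psmb10 on both scales, with overlapping ranges on the second.

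The title tag went with the members' values, and not with theirs alone. With treatment in the fit, all 5 proteasome members were higher in the 2 GFP1 libraries than in the 4 GFP3 ones, by 0.51 (Psmb8) to 0.75 (Psme2) on the log2 scale. The other 5 members were lower, by -0.61 (Nlrc5) to -1.41 (Tapbp). The 3 constitutive catalytic subunits and the 11 other 20S core subunits were each higher in both GFP1 libraries than in every GFP3 library. Genes of the 19S regulator did not all go this way, and Psmd2 was lower. Tapbp passed in limma with an adjusted p of 0.0311, 1 of 10 members beside 7.75% of all tested genes called in either direction, and the ranges of 6 of 10 members did not overlap between tags, beside 38.0% of all tested genes. Tap2, at 432 and 558 scaled counts in the GFP1 libraries and 739 to 1991 in the GFP3 ones, shows it plainly. Tag differences of all tested genes went with exon length. Their median was 0.43 for the 3506 genes under 2000 bases, 0.04 for the 4863 genes of 2000 to 4000 bases and -0.24 for the 7668 longer genes. The part of the tag and of length in the IFNg values was not tested, but Nlrc5 and Tap1 can be read with the tag in the fit. With the tag as a term, where 0.671% of tested genes were called higher, the adjusted p in limma was 0.0121 for Nlrc5 and 0.00351 for Tap1. In the 4 GFP3 libraries alone it was 0.0064 for Nlrc5 and 0.00167 for Tap1, where 8.27% of all tested genes were called higher. The GFP1 tag has 1 library a group and gives no test of its own. The difference in IFNg change between tags passed for 0 of 16095 genes in limma (2117 at an unadjusted p below 0.05). For Tap1 it was -0.90, with a 95% interval of -2.04 to 0.25 and an adjusted p of 0.538, and for Nlrc5 0.92, from -0.32 to 2.16, with 0.570.

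**Figure D4:**
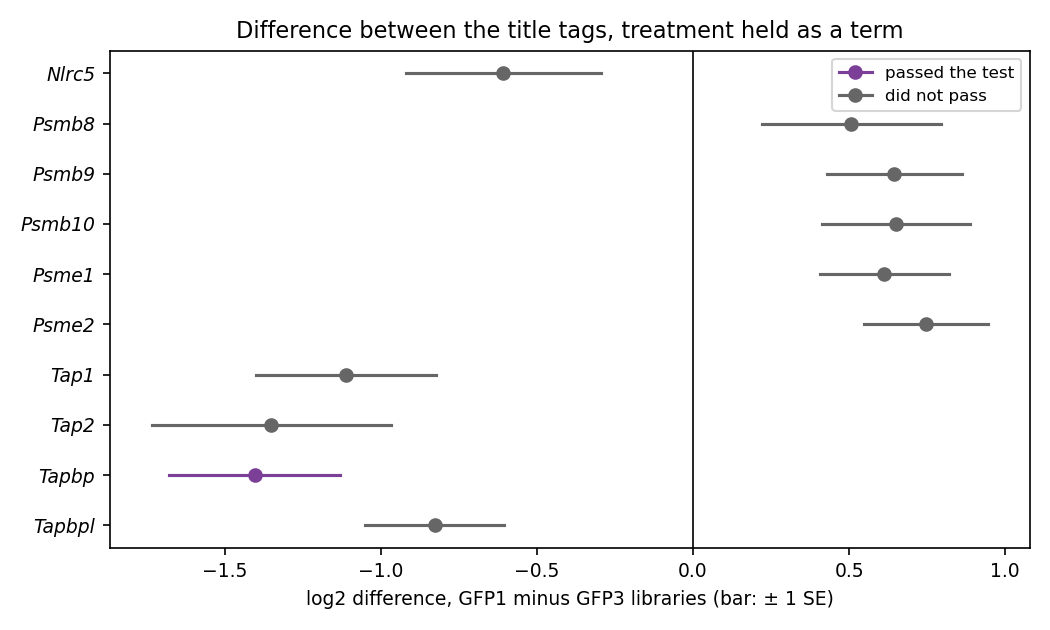
Log2 difference between the 2 GFP1 and the 4 GFP3 libraries for each of the 10 genes, with treatment in the fit and bars of 1 SE to each side. The 5 proteasome genes lie above 0 and the other 5 below, and Tapbp at -1.41 is the member that passed.

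The wider pathway was read from 10 lists beside these members, with 81 tested genes. Of these, 3 were called higher and 0 lower, beside 0.416% and 0.0124% of all tested genes, and all 3 are transcription factors of the IFNg signal. Irf1, which binds interferon response elements, had 55019, 66943 and 56965 scaled counts in IFNg libraries 6, 2 and 10, against 1718, 1726 and 1876 in untreated libraries 5, 1 and 9. Irf8, a partner of other interferon regulatory factors, had 16048, 18738 and 16282 in the same IFNg libraries, against 2579, 2788 and 2041 in the same untreated ones. Irf9, part of the ISGF3 complex, had 4119, 4326 and 4119 with IFNg, against 924, 995 and 885 without, in the same order of libraries. Groups were far apart for all 3, with log2 changes of 5.07 (Irf1), 2.79 (Irf8) and 2.16 (Irf9) and limma's adjusted p of 2.33e-05, 8.03e-04 and 0.00321. Within the list of 10 genes of the IFNg signal the median log2 change was 1.19, beside -0.08 over all tested genes.

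The lists of the presentation pathway itself had 0 called genes, and with 0.416% of all tested genes called higher, lists of 2 to 17 genes would hold few or none in any case. The 14 class I molecules had 0 called in either direction and a median log2 change of 0.12, between 0.58 for H2-T24 (adjusted p 0.848) and -0.26 for H2-Q2 (adjusted p 0.889). The H2 genes of this list can have near-identical copies, which was not measured here. Reads with more than 1 alignment were counted apart, so the values of the H2 genes are uncertain. The 3 constitutive catalytic subunits (median -0.08, Psmb7 0.05 to Psmb6 -0.27) and the 11 other subunits of the 20S core (median 0.01, Psma3 0.15 to Psmb3 -0.17) had 0 called. Psme3, the nuclear relative of PA28, had a log2 change of 0.24 and Psme4, the activator PA200, -0.16, and neither passed. Assembly factors (5 tested, median 0.01, Psmg4 0.16 to Psmg1 -0.10), folding partners (4 tested, median -0.13, Pdia3 0.26 to Hspa5 -0.38) and the 19S regulator (17 tested, median -0.16, Psmd3 0.91 to Psmd11 -0.42) also had 0 called. Of the 7 peptide trimming enzymes, 0 were called and the median was 0.02, between Npepps, the puromycin-sensitive aminopeptidase, at 0.74 and Blmh at -0.18. The adjusted p in limma was 0.441 for Npepps and 0.452 for Psmd3, and in the 4 GFP3 libraries alone, where 8.27% of all tested genes were called higher, 0.0289 for Npepps and 0.0334 for Psmd3.

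Among the 8 factors that work with Nlrc5 on class I promoters, 0 were called and the median log2 change was 0.20. Rfxap, a subunit of the RFX complex that Nlrc5 binds through, had 411, 638 and 1500 scaled counts in IFNg libraries 6, 2 and 10, against 186, 64.5 and 25.7 in untreated libraries 5, 1 and 9. All treated libraries were above all untreated ones, while the untreated libraries spread over a wide range. Its log2 change was 3.41 ± 0.715 (SE), the highest of the list, with an adjusted p of 0.144 in limma. DESeq2 gave 6.20e-04 (3.22% of tested genes called higher). In limma the adjusted p was 0.00331 in the 4 GFP3 libraries (8.27% called higher) and 0.0171 without untreated 5 (2.27% called higher). In every other alternative it stayed above the threshold, with 0.224 in edgeR. Limma gave 0.354 with the replicate block and 0.121 with the tag as a term. Nfya, at -0.33, was the lowest of the list.

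Patterns most like those of Nlrc5 and Tap1 were taken as the smallest root mean square difference of centred log2 values over the 6 libraries. For Nlrc5 they were Sgk2 (0.190), Gdap10 (0.192) and Thpo (0.263), and for Tap1 Furin (0.271), Csf1 (0.273) and Gpr146 (0.295). Furin had 966, 3042 and 2502 scaled counts in IFNg libraries 6, 2 and 10, against 351, 547 and 385 in untreated libraries 5, 1 and 9. Its order of IFNg libraries was that of Tap1, for whose likeness it was picked, and also that of Tap2, Tapbp and Tapbpl. Sgk2 had 981, 1234 and 1121 in those IFNg libraries, against 118, 269 and 259 in those untreated ones.

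Immune cells carry this machinery at rest, so their markers stand beside the values. Of 19 leukocyte markers 16 were used, 9 were tested and 0 were called, and their summed level was 338 to 575 scaled counts in IFNg libraries and 334 to 425 in untreated ones. Ptprc, the pan-leukocyte marker, lay at 11.1 to 41.2 scaled counts in IFNg libraries and 20.6 to 33.7 in untreated ones, and Cd3e, of T cells, at 0 to 10.6 with IFNg and 0 to 6.18 without. Ms4a1, of B cells, was higher in all 3 pairs with groups that did not overlap, at 71.6, 34.7 and 43.0 scaled counts in IFNg libraries 6, 2 and 10, against 27.4, 22.4 and 19.6 in untreated libraries 5, 1 and 9 (log2 change 1.02, adjusted p 0.579 in limma). Jchain, of plasma cells, stood at 201 scaled counts in IFNg 2 and at 0.853 and 4.39 in IFNg 6 and 10, against 2.06 to 17.9 in untreated libraries. The part of leukocyte RNA in the members' values was not tested. Paneth cell markers (5 of 5) summed to 19347 to 151013 scaled counts with IFNg and 84307 to 269641 without, all 5 with a log2 change below 0 and 0 called. Goblet cell markers summed to 75590.5 to 147212 scaled counts with IFNg and 65242 to 226577 without. Enteroendocrine markers summed to 5077 to 15428 with IFNg and 5938 to 18383 without. Of these, 0 were called in either list. The part of Paneth, goblet and enteroendocrine RNA in the members' values was not tested.

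**Figure D5:**
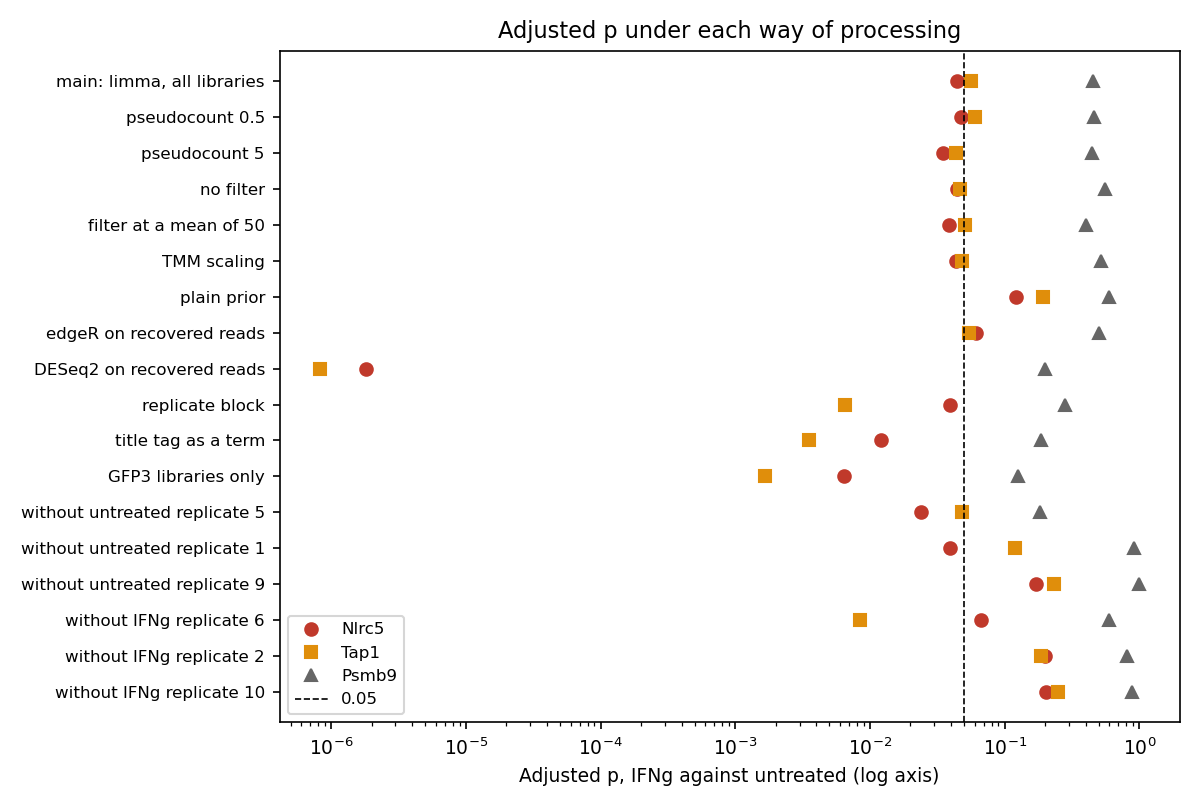
Adjusted p (log axis) of Nlrc5, Tap1 and Psmb9, IFNg against untreated, in the main setting (top row) and under each of 17 alternatives, with a dashed line at 0.05. Nlrc5 lies left of the line in 11 alternatives and Tap1 in 9, and Psmb9 lies right of it in all.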

How the data were processed

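The deposited table holds 1 signal per gene and library, a scaled count, which the authors made by dividing reads by a size factor of the library, per the file name. Per the submitters' processing notes, mm10, STAR 2.5.0a, cutadapt 1.6, DESeq 1.22.1 and HTSeq 0.5.3 were used, with no roles or settings. Neither the annotation nor the strand setting is given in the sources used here. Per the labels' protocols the kit was SMART-Seq v4, which marks neither strand nor molecules, so reads are not independent molecules.

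From the deposited values, whole reads were recovered for 100% of 138762 values within 0.01 read. The 4 rows of unassigned reads were left out. They held 18.5% to 25.0% (more than 1 alignment), 9.67% to 14.2% (outside genes), 8.83% to 15.4% (not aligned) and 0.948% to 1.20% (ambiguous) of a library's total. Chi-square per degree of freedom between libraries was 62.7 to 505, so none was a repeat of another.

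Values were tested as log2(scaled count + 1), which understates changes of low genes, with limma 3.58.1 (R 4.3.3), using a robust trended prior and two-sided tests. The 16095 genes averaging 10 or more scaled counts entered, and those with a Benjamini-Hochberg adjusted p below 0.05 were called. EdgeR 4.0.16 (quasi-likelihood, TMM) and DESeq2 1.42.0 ran on the recovered reads. Scripts were tested on simulated data. Folds are ratios of mean scaled counts. Deviations from group means correlated at 0.302 (libraries 5 and 6), 0.404 (1 and 2) and 0.252 (9 and 10), all above 0.1, so these were taken as pairs from the data. Alternatives covered pseudocount, filter, scaling, prior, test, block, tag and each library left out. Positions and exon lengths came from GENCODE M21, which matched 23006 of 23127 gene IDs.

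The members and lists were chosen with earlier results of these data known. Named were all members, each list gene that passed or else the highest and lowest of its list, and the 3 genes most like Nlrc5 and Tap1.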

Additional observations from a re-analysis of the deposited data

How the results depend on the processing

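Counts of called genes and the log2 changes of the members and named list genes were recomputed under 17 alternatives, and the 7 log2 ratios under 2 pseudocounts and with each library left out. The tag differences were not recomputed. The levels in untreated libraries were recomputed with the length of the longest coding transcript, a choice made after seeing the data, as given with them. The log2 changes of Nlrc5, Tap1, Psmb9 and Tapbpl kept their sign in every one. Members called higher (1 of 10 in the main setting, Nlrc5) were 2, Nlrc5 and Tap1, with a pseudocount of 5, no filter, TMM scaling, DESeq2, the replicate block, the tag as a term and GFP3 libraries alone, were 0 with a plain prior and in edgeR, and were 0 to 2 with each library left out, beside 0.249% to 8.27% of all tested genes called higher in these settings. Genes called higher, 67 in the main setting, numbered 457 in DESeq2, 108 with the tag as a term, 1331 in GFP3 libraries alone and 40 to 366 with each library left out, with 366 without untreated 5, 40 without IFNg 2 and 44 without IFNg 10. Genes called lower, 2 in the main setting, numbered 1 with a pseudocount of 0.5, with a filter of 50 and with the replicate block, 8 in DESeq2, 12 in GFP3 libraries alone and 1 to 3 with each library left out. Genes of the wider lists called higher, 3 in the main setting, numbered 6 in DESeq2, 8 in GFP3 libraries alone and 3 to 5 with each library left out. The replicate block gave 74 genes called higher and changed no member's call but that of Tap1.

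The small changes turned sign with single choices. Psmb10 was at -0.013 with TMM scaling and Psmb7 at -0.016 in edgeR. With each library left out the log2 change ran from -0.044 to 0.49 for Psmb8, -0.18 to 0.31 for Psmb10, -0.12 to 0.33 for Psme1, -0.16 to 0.34 for Psme2, -0.31 to 0.79 for Tap2 and -0.64 to 0.30 for Tapbp. Likewise it ran from -0.26 to 0.29 for Psmb7, -0.067 to 0.29 for Psma3, -0.52 to 0.11 for Psmb3, -0.07 to 0.44 for Psme3, -0.38 to 0.084 for Psme4, -0.22 to 0.46 for Psmg4 and -0.47 to 0.13 for Psmg1. The difference in log2 ratio ran from -0.24 to 0.22 for Psmb10 over Psmb7 and from -0.043 to 0.094 for Psme2 over Psme1. The cause of these shifts was not tested. Each member was above the floor of 3 reads in every library, and depth as a cause of the shifts was not tested.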
